A study of Mus musculus with 24 samples.

Results

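The semaphorins, plexins and neuropilins were examined as one signalling family in the hippocampus of mice with and without the DNA glycosylases Ogg1 and Mutyh. Members were all gene symbols of the count tables that name a semaphorin of classes 3 to 7, a plexin of families A to D, or Nrp1 or Nrp2. This gave 31 of 55254 genes, namely 20 semaphorins, 9 plexins and 2 neuropilins. Nuclei from hippocampi of male C57BL/6N mice aged 6 months had been sorted into NeuN+ and NeuN- nuclei by staining for NeuN, the product of Rbfox3 and a marker of most neurons. Each fraction was sequenced in 3 replicates of wild type (WT), Mutyh-/-, Ogg1-/- and Mutyh-/-xOgg1-/- (DKO) mice, which gave 24 libraries. No promoter or cell type that would restrict the deletions is named, and the NeuN- fraction mixes several cell types. Nuclei were pooled over animals, and the sources used here leave unclear how pools map to replicates, so p-values measure the spread between these libraries, which may be technical.

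Semaphorins are secreted or membrane-bound guidance proteins that steer growing axons, and in the adult brain they act on dendritic spines, synapses and myelinating cells. Plexins are their receptors on the cell surface and signal through small GTPases to the cytoskeleton. Class 3 semaphorins are secreted and mostly need a neuropilin, Nrp1 or Nrp2, as the binding partner of a class A plexin, whereas class 4 semaphorins are membrane-bound and signal mainly through class B plexins.

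Total counts ranged from 56563586 to 96192142 in NeuN+ and from 56982273 to 92409869 in NeuN-. Levels are given in CPM, the count of a gene scaled to a common library total, after TMM normalization over all 24 libraries. The 5 neuronal markers summed to 4700.1 to 5425 CPM in NeuN+ and 260.2 to 388 CPM in NeuN-, and the 6 oligodendrocyte markers to 149.9 to 177 CPM in NeuN+ and 4692 to 7051 CPM in NeuN-. Ogg1 stood at 5.63 to 7.13 CPM in NeuN- of all 4 genotypes and was not lower in the libraries labelled Ogg1-/- or DKO (log2 fold change in NeuN- 0.02 and 0.09). Mutyh was higher than in WT in the libraries labelled Mutyh-/- and DKO (log2 fold change in NeuN+ 3.15 and 2.99, edgeR adjusted p = 2.34e-08 and 3.06e-08). Every library labelled Mutyh-/- or DKO held more Mutyh than all WT and Ogg1-/- libraries of its cell type. The levels were 8.47 to 12.2 against 1.15 to 1.41 CPM in NeuN+, and 6.65 to 9.71 against 2.39 to 3.29 CPM in NeuN-. Counts over a whole gene do not show which exons were read, so neither gene shows a deletion, and genotypes are those the labels give. The lanes that held NeuN+ libraries held none of NeuN-, so effects of lane cannot be told apart from those of cell type.

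Stretches of DNA upstream of 4 genes introduce the members on either side of the cell-type difference, since each lies directly upstream of a start site of such a gene. Sema4f and Sema6b were higher in NeuN+ in every genotype, and Plxnb3 and Sema4c were higher in NeuN-. The 250 bases before the RefSeq start (build GRCm38.p6) are written 5′ to 3′ on the strand of the gene, with CG dinucleotides, the sites of most DNA methylation, in capitals. They lie at chr6:82939770-82940019 on the minus strand for Sema4f, chr17:56140344-56140593 on the minus strand for Sema6b, chrX:73756853-73757102 on the plus strand for Plxnb3 and chr1:36558382-36558631 on the minus strand for Sema4c.
Sema4f: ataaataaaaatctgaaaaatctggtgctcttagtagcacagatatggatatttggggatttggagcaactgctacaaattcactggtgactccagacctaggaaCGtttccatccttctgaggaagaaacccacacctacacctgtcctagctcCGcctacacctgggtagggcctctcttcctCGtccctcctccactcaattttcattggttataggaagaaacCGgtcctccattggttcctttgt
Sema6b: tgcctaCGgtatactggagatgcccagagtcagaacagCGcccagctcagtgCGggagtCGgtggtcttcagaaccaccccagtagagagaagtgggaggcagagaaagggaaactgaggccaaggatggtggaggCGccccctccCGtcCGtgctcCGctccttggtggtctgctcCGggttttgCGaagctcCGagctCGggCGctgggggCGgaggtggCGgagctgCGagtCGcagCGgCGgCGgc
Plxnb3: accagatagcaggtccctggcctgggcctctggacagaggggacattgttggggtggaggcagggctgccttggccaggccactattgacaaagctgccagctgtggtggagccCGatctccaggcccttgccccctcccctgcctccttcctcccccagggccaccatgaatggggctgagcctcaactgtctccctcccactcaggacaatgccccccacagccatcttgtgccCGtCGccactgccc
Sema4c: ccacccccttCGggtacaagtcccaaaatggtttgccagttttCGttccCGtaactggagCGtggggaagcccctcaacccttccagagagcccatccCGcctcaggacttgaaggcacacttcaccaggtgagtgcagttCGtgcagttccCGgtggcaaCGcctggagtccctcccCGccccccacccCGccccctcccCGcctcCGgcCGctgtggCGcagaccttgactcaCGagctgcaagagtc
The windows of Sema4f and Plxnb3 hold 4 and 3 CG dinucleotides and those of Sema6b and Sema4c hold 20 and 15, so low and high counts occur on both sides. Of the 31 members, 26 had a window in the RefSeq table, with a median of 15.5 CG dinucleotides against 10 over 16517 protein-coding genes. The GC box GGGCGG, searched on both strands, was in 20 of the 26 windows (76.9%) and in 44.5% of those of all genes, and the TATA box TATAAA was in 0 of the 26 and in 11.9%. These matches describe letters and name no bound factor. In the GENCODE annotation of GRCm38, 12 members overlap a gene on the opposite strand and 7 share exonic bases with another gene, among them Plxna4 with Plxna4os3, Plxnb1 with Gm7628 and Sema4c with D430040D24Rik. How strand was handled in counting is not given in the sources used here, so reads of these overlaps may not be separable.

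In WT, 21 of the 31 members differed between the cell types (adjusted p under 0.05 and an absolute log2 difference above 1), 11 higher in NeuN+ and 10 higher in NeuN-. Over all 33523 genes tested, 42.9% were called by the same limits, 21.3% higher in NeuN+ and 21.6% higher in NeuN-, so the split of the family stood beside a broad difference between the fractions. The other genotypes are separate libraries, and in them 20 members were called in Mutyh-/-, 20 in Ogg1-/- and 19 in DKO, beside 43.9%, 43.9% and 44.4% of all genes. In all 4 genotypes, 10 members were called higher in NeuN+ (18.1% of all genes) and 8 higher in NeuN- (18.3%). A further 4 members were called in some genotypes and 9 in none. In bulk nuclei, fewer cells of a type and less RNA per cell cannot be told apart.

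**Figure D1:**
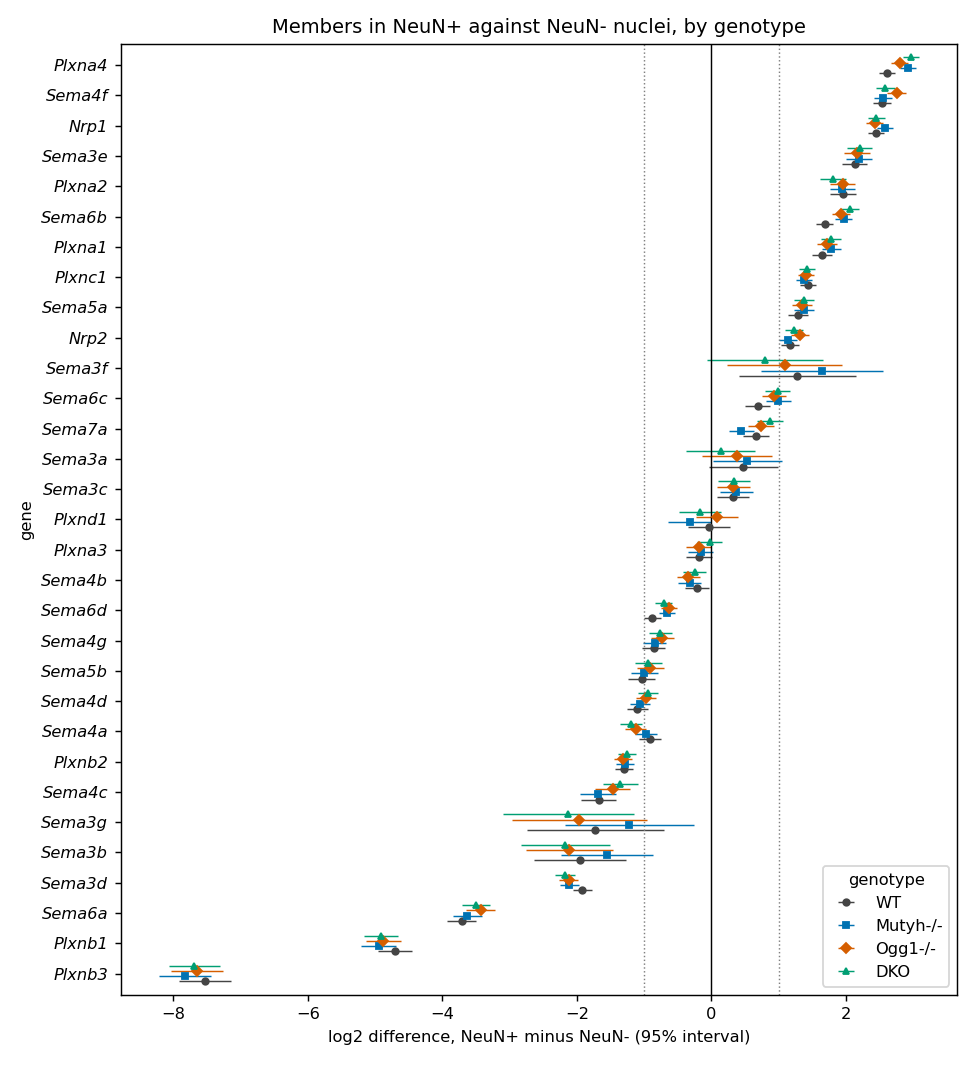
Log2 difference between NeuN+ and NeuN- for each of the 31 members (rows), with 95% intervals, in WT, Mutyh-/-, Ogg1-/- and DKO; dotted lines mark 1 and -1. Plxna4 lay farthest to the right at 2.61 to 2.97 and Plxnb3 farthest to the left at -7.83 to -7.53.

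The plexins divided by family. Of the 4 class A plexins, the partners of neuropilins and the receptors of class 6 semaphorins, Plxna4, Plxna2 and Plxna1 were called higher in NeuN+ in every genotype. Plxna4 (chr6:32144268-32588192) was at 1373, 1276 and 1371 CPM in WT NeuN+ and at 222, 218 and 218 CPM in WT NeuN-. The knockouts lay at 1373 to 1637 CPM in NeuN+ and 194 to 215 CPM in NeuN-, so the cell types did not overlap. The log2 difference of Plxna4 was 2.61 ± 0.06 (SE) in WT, a 6.11-fold higher level, and 2.80 to 2.97 in the knockouts (edgeR adjusted p at most 2.54e-20). Plxna2 ranged from 265 to 306 CPM in NeuN+ and from 67.9 to 101 CPM in NeuN-, and Plxna1 from 114 to 142 CPM and from 35.6 to 44.2 CPM. Plxna3 was not called in any genotype. It was at 14.9, 17.3 and 16.1 CPM in WT NeuN+ and at 17.9, 18.2 and 18.8 CPM in WT NeuN-, and its log2 difference ran from -0.19 to -0.03.

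All 3 class B plexins, the receptors of class 4 semaphorins and, for Plxnb3, of Sema5a, were called higher in NeuN- in every genotype. Plxnb3 (chrX:73757090-73772514) was at 0.925, 1.05 and 0.677 CPM in WT NeuN+ and at 173, 151 and 168 CPM in WT NeuN-. Its count in the 12 NeuN+ libraries was 41 to 78, against 9570 to 20382 in NeuN-. The log2 difference of Plxnb3 was -7.53 ± 0.18 (SE) in WT, a 184-fold lower level in NeuN+, and -7.83 to -7.65 in the knockouts. Plxnb1 (chr9:109095389-109119917) was at 5.64, 6.79 and 5.25 CPM in WT NeuN+ and at 157, 145 and 161 CPM in WT NeuN-. The level of Plxnb1 was 26.1-fold lower in WT NeuN+ (log2 difference -4.71 ± 0.12), and the log2 difference was -4.94 to -4.88 in the knockouts. Plxnb2, which is found in many tissues, differed least of the 3, with 23.99 to 30.7 CPM in NeuN+ and 64.4 to 72.7 CPM in NeuN- (log2 difference -1.31 to -1.26). For all 3 genes the 12 libraries of each cell type stood wholly apart.

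The remaining 2 plexins differed from each other. Plxnc1, the receptor of Sema7a, was called higher in NeuN+ in every genotype, with 76.7 to 84.2 CPM in NeuN+ and 27.2 to 34.1 CPM in NeuN-. Plxnd1, the receptor of Sema3e best known from blood vessels, was called in none. It was at 15.2, 18.7 and 14.9 CPM in WT NeuN+ and at 17.4, 16.6 and 15.9 CPM in WT NeuN-, and the groups overlapped.

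Both neuropilins, which also bind VEGF, were called higher in NeuN+ in every genotype. Nrp1 (chr8:128358604-128503363) was at 314, 281 and 314 CPM in WT NeuN+ and at 53.7, 55.4 and 58.0 CPM in WT NeuN-. All 12 NeuN+ libraries of Nrp1 (281 to 348 CPM) lay above all 12 NeuN- libraries (53.7 to 63.1 CPM), and its log2 difference was 2.44 ± 0.06 (SE) in WT and 2.43 to 2.58 in the knockouts. Nrp2 ranged from 122 to 136 CPM in NeuN+ and from 49.8 to 61.7 CPM in NeuN- (log2 difference 1.14 to 1.32).

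The 7 secreted class 3 ligands fell on both sides. Sema3e, the ligand that binds Plxnd1 without a neuropilin, was at 92.2 to 136 CPM in NeuN+ and 22.0 to 30.0 CPM in NeuN- (log2 difference 2.13 to 2.20). Sema3d went the other way, with 10.4 to 13.4 CPM in NeuN+ and 45.4 to 51.5 CPM in NeuN- (log2 difference -2.18 to -1.92). Sema3b and Sema3g were also called higher in NeuN-, at low levels. Sema3g held 6 to 15 reads per NeuN+ library and Sema3b 17 to 40. Sema3f was called higher in NeuN+ in WT, Mutyh-/- and Ogg1-/-, with a log2 difference of 1.28, 1.64 and 1.09, and not in DKO, where it was 0.79 (edgeR adjusted p = 0.0884). Sema3a, the ligand of Nrp1 that collapses growth cones, was at 8.05, 7.16 and 6.54 CPM in WT NeuN+ and at 5.16, 5.07 and 5.42 CPM in WT NeuN-, with a log2 difference of 0.47 that did not pass (edgeR adjusted p = 0.0918). Sema3c was at 10.6, 10.2 and 10.1 CPM in WT NeuN+ and at 8.50, 6.48 and 9.66 CPM in WT NeuN-, a log2 difference of 0.32 (edgeR adjusted p = 0.0158) that stayed under the fold limit.

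Markers of the choroid plexus, an epithelium beside the hippocampus, varied widely between NeuN- libraries, as did some class 3 ligands. The 5 markers summed to 33.2 to 60.1 CPM in WT and 17.7 to 22.0 CPM in Mutyh-/-. They summed in replicates 1 to 3 to 9.17, 90.1 and 94.97 CPM in Ogg1-/- and to 7.15, 61.8 and 213 CPM in DKO. Sema3f in the same order of replicates was at 0.486, 0.89 and 2.06 CPM in Ogg1-/- NeuN- and at 0.57, 0.977 and 2.08 CPM in DKO NeuN-. Sema3b was at 1.23, 1.65 and 2.25 CPM in Ogg1-/- NeuN- and at 1.33, 1.30 and 2.40 CPM in DKO NeuN-. In Mutyh-/- NeuN-, where the choroid plexus sums varied little, Sema3f was at 0.499, 0.489 and 0.944 CPM and Sema3b at 0.701, 1.00 and 1.62 CPM. The 4 markers of meningeal fibroblasts were also highest in replicate 3 of each knockout, with sums of 18.2, 16.4 and 21.8 CPM in Mutyh-/-, 20.3, 18.2 and 22.1 CPM in Ogg1-/- and 20.9, 17.6 and 33.6 CPM in DKO, against 12.7, 16.1 and 15.05 CPM in WT. The part of either tissue in the values of Sema3f and Sema3b was not tested.

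Of the 6 class 4 ligands, only Sema4f was called higher in NeuN+. Sema4f (chr6:82911885-82939769) was at 32.7, 34.4 and 34.1 CPM in WT NeuN+ and at 5.43, 5.87 and 6.17 CPM in WT NeuN-, and the log2 difference was 2.53 ± 0.07 (SE) in WT and 2.76 at most in the knockouts. Sema4c, a ligand of Plxnb2, was called higher in NeuN- in every genotype. It was at 3.58, 4.07 and 3.75 CPM in WT NeuN+ and at 13.6, 12.0 and 10.9 CPM in WT NeuN-, with a log2 difference of -1.68 ± 0.13 (SE) in WT and of -1.68 (Mutyh-/-), -1.46 (Ogg1-/-) and -1.36 (DKO) in the knockouts. Sema4d, a ligand of Plxnb1, lay at 82.1 to 108 CPM in NeuN+ and 177 to 209.8 CPM in NeuN-, and Sema4a at 13.1 to 17.2 CPM and 25.6 to 36.2 CPM. Both crossed the fold limit in 2 genotypes only, with log2 differences of -1.10 to -0.94 for Sema4d and -1.20 to -0.91 for Sema4a. Sema4b and Sema4g were not called. Sema4b was at 29.3, 31.7 and 33.0 CPM in WT NeuN+ and at 33.2, 34.7 and 41.4 CPM in WT NeuN-. Sema4g was at 10.9, 12.2 and 11.2 CPM in WT NeuN+ and at 22.8, 19.5 and 19.6 CPM in WT NeuN-. The log2 difference of Sema4g in WT was -0.86 ± 0.08 (SE), below the fold limit although the groups stood apart.

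The transmembrane ligands of classes 5 and 6 contained opposite pairs. Sema5a was called higher in NeuN+ in every genotype, with 263 to 316 CPM in NeuN+ and 99.9 to 124 CPM in NeuN-. Sema5b was called higher in NeuN- in WT, with 29.0 to 41.8 CPM over all NeuN+ libraries and 60.1 to 72.5 CPM over all NeuN- libraries. Its log2 difference in WT, -1.03, lay at the fold limit and was -0.97 without WT NeuN+ replicate 2. Sema6b, a ligand of Plxna4, ranged from 35.2 to 41.5 CPM in NeuN+ and from 8.96 to 12.3 CPM in NeuN- (log2 difference 1.68 to 2.06). Sema6a, a ligand of Plxna2 and Plxna4, was the opposite. It was at 21.5, 21.6 and 20.2 CPM in WT NeuN+ and at 297, 278 and 253 CPM in WT NeuN-, with a log2 difference of -3.71 ± 0.10 (SE) in WT and -3.63 to -3.43 in the knockouts.

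Sema6c, Sema6d and Sema7a were not called in any genotype. Sema6c was at 9.49, 10.4 and 10.8 CPM in WT NeuN+ and at 6.42, 6.29 and 6.37 CPM in WT NeuN-. Sema6d, a ligand of Plxna1, was at 293, 268 and 263 CPM in WT NeuN+ and at 545, 489 and 478 CPM in WT NeuN-. Sema7a, which is held to the membrane by a lipid anchor, was at 48.8, 56.5 and 50.9 CPM in WT NeuN+ and at 34.5, 32.2 and 32.0 CPM in WT NeuN-. The groups did not overlap for these 3 genes in WT, with log2 differences of 0.69 for Sema6c, -0.88 for Sema6d and 0.66 for Sema7a.

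**Figure D2:**
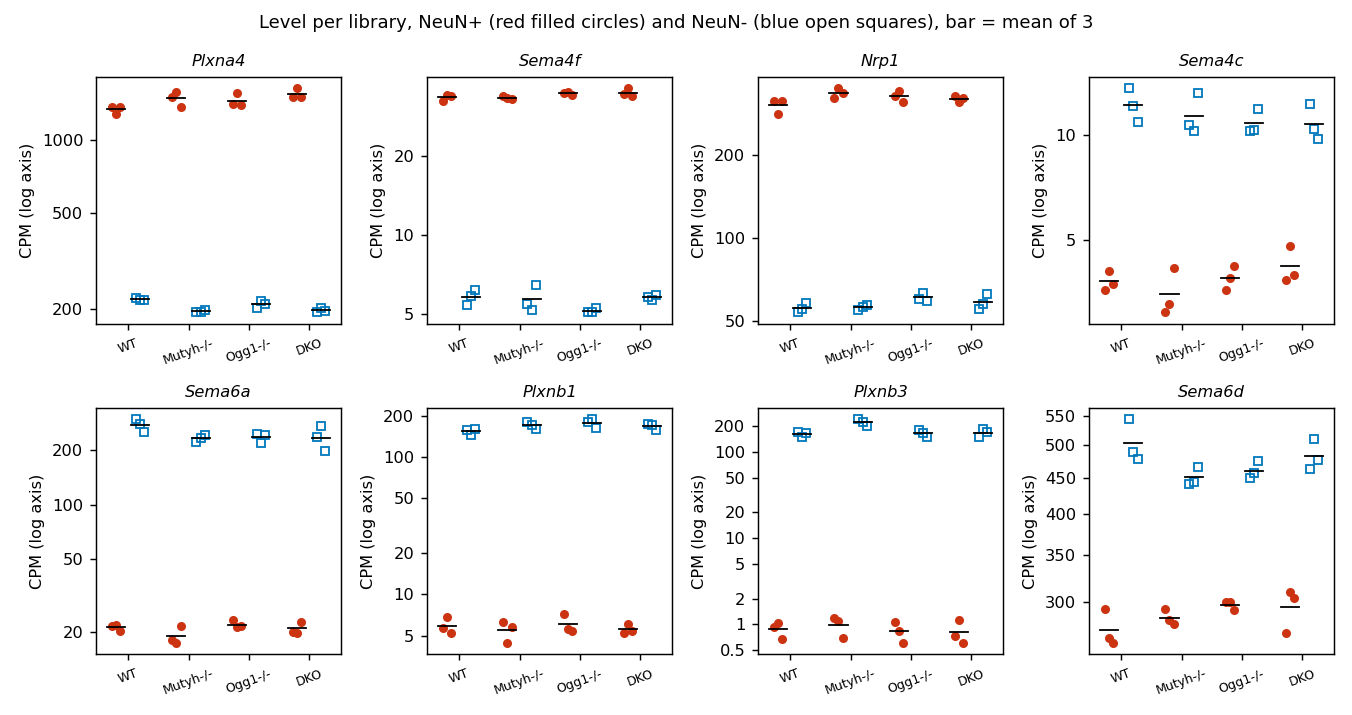
Level in CPM (log axis) of 8 members in each of the 24 libraries, by genotype, in NeuN+ (red circles) and NeuN- (blue squares); bars are means of 3. The cell types stand apart in every panel, from 0.606 to 1.19 against 150.3 to 242 CPM for Plxnb3 to 263 to 309.9 against 441 to 545 CPM for Sema6d.

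Between genes, levels were compared per length. In WT NeuN+, Plxna4 had the highest level of the family both per kilobase of exonic length (95.03 CPM per kb) and per kilobase of gene span (3.02 CPM per kb). Nrp1 came next per exonic kilobase (31.0 CPM per kb) and Plxna1 next per kilobase of span (2.62 CPM per kb). In WT NeuN-, Sema6d was highest per exonic kilobase (47.7 CPM per kb) and Plxnb3 was highest per kilobase of span (10.6 CPM per kb). Which length applies depends on how much intronic RNA of these nuclei was counted, which is not given in the sources used here.

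No member was called in any of the 6 comparisons of a knockout with WT by edgeR, with the adjusted p under 0.05 and a log2 fold change past 0.5 in either direction. Of all genes tested in NeuN+, 0.428% were called in Mutyh-/-, 0.574% for Ogg1-/- and 0.302% for DKO, and in NeuN- these shares were 0.273%, 0.229% and 0.116%. Without the fold limit 0 members passed, beside 0.641%, 1.1% and 0.494% of all genes in NeuN+ and 0.32%, 0.342% and 0.179% in NeuN-. At such rates fewer than 1 call is met in a list of 31 genes. This 0 depended on the tool. With DESeq2 and no fold limit, 2 members passed for Mutyh-/- in NeuN+ (Plxnd1 and Sema3e) and 0 for Ogg1-/- and DKO, beside 4.07%, 2.54% and 2.11% of the genes fitted. In NeuN-, DESeq2 passed 3 members for Mutyh-/- (Plxna4, Plxnb3 and Sema6b), 1 for Ogg1-/- (Sema4a) and 2 for DKO (Plxna4 and Sema6b), beside 1.88%, 1.84% and 1.46%. Without the filter on low counts, edgeR passed 2, 0 and 1 members in NeuN+, beside 3.05%, 1.43% and 1.2% of all genes. In NeuN- it then passed 1, 0 and 0, beside 0.29%, 0.296% and 0.222%. For Mutyh-/- without its replicate 3, edgeR passed 3 members in NeuN+ and 2 in NeuN-, beside 6.21% and 2.62% of all genes. Sema3g was removed by the filter on low counts in NeuN+, which left 30 members there and 31 in NeuN-. At an unadjusted p under 0.05, 7 members were counted for Mutyh-/-, 3 for Ogg1-/- and 4 for DKO in NeuN+, beside 18.7%, 12.3% and 13.5% of all genes. In NeuN-, 7, 7 and 4 members were counted, beside 13.7%, 11.8% and 12.4%. With the fold limit, DESeq2 called 1 member, Plxnd1 in Mutyh-/- NeuN+, and 0 in the other 5 comparisons.

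The intervals bounded the changes of most members. In NeuN+, the 95% interval of the log2 fold change lay within 0.5 of no change for 26 of 30 members with Mutyh-/-, 27 with Ogg1-/- and 27 with DKO. In NeuN-, it did so for 24, 27 and 27 of 31. The intervals that reached past 0.5 in either direction belonged to Sema3a, Sema3b, Sema3c, Sema3f, Sema3g, Plxnb3 and Plxnd1. Those of Plxnd1 in Mutyh-/- NeuN+ and of Plxnb3 in Mutyh-/- NeuN- are given below with their estimates.

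**Figure D3:**
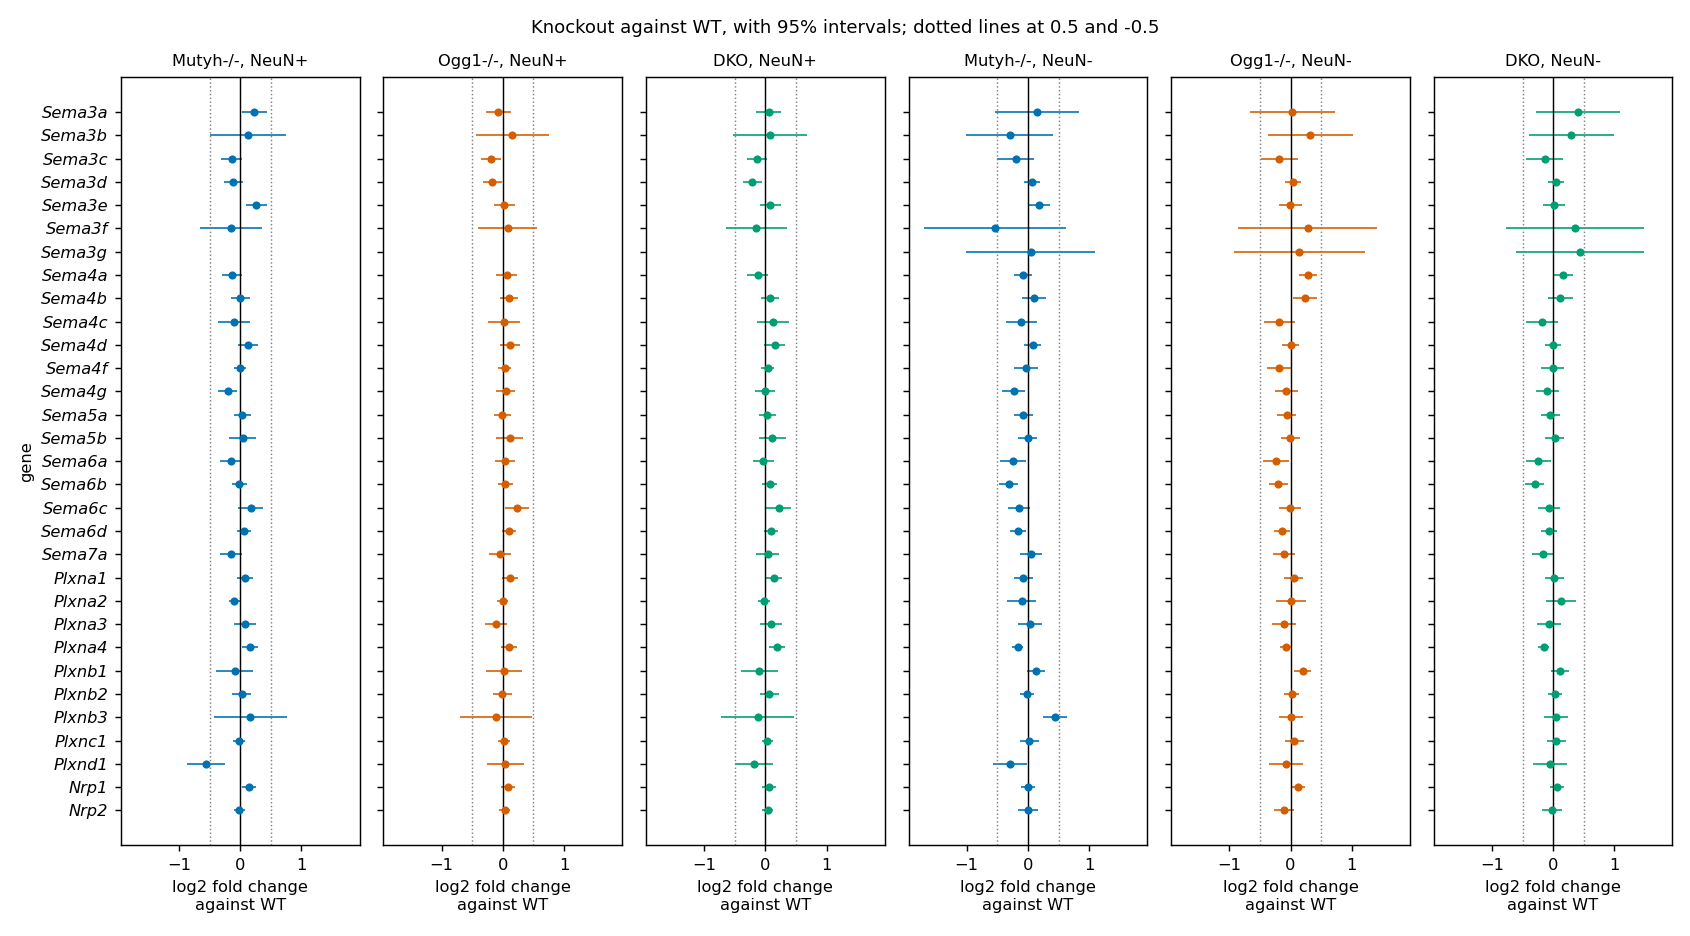
Log2 fold change of each member against WT (x axis) with its 95% interval, for the 3 knockouts in both cell types; dotted lines mark 0.5 and -0.5. Most intervals stay between the dotted lines. In NeuN-, Sema3a, Sema3b, Sema3f and Sema3g cross them for all 3 knockouts, and Plxnb3, Plxnd1 and Sema3c also do for Mutyh-/-.

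Sema4c, which the study names, did not pass in any comparison of genotypes. The study lists it among genes whose RNA was higher, and whose DNA was less methylated, in DKO neurons. It also reports that RNA of this gene went with the histone mark H3K4me3 there. Those RNA levels were FPKM, counts scaled for depth and gene length. Methylation was measured in DNA of whole hippocampus, not of sorted nuclei. In NeuN+ Sema4c was at 3.10, 3.27 and 4.16 CPM in Mutyh-/-, at 3.59, 3.89 and 4.20 CPM in Ogg1-/- and at 3.85, 4.79 and 3.96 CPM in DKO. In NeuN- it was at 10.6, 10.2 and 13.1 CPM in Mutyh-/-, at 10.3, 10.3 and 11.8 CPM in Ogg1-/- and at 12.2, 10.3 and 9.71 CPM in DKO. Each of these groups overlapped the WT libraries. For Sema4c the log2 fold change in NeuN+ was -0.10, 0.02 and 0.13 for Mutyh-/-, Ogg1-/- and DKO, with an interval of -0.13 to 0.39 for DKO, and in NeuN- it was -0.11, -0.18 and -0.18.

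The members with the smallest p-values are given as values, chosen after these were seen. Plxnd1 in NeuN+ was at 10.7, 7.92 and 14.2 CPM in Mutyh-/- against 15.2, 18.7 and 14.9 CPM in WT, a log2 fold change of -0.56 with an interval from -0.87 to -0.25 (edgeR adjusted p = 0.0820). The 3 libraries of Mutyh-/- lay below those of WT, and replicate 3 was nearest to them. Without Mutyh-/- NeuN+ replicate 3 the value was -0.79 (adjusted p = 0.00353), without replicate 2 it was -0.38 (0.200), and DESeq2 gave -0.56 (0.00707). The 5 endothelial markers summed to 20.3, 21.7 and 26.9 CPM in Mutyh-/- NeuN+ in rising order and to 27.9, 28.9 and 35.3 CPM in WT NeuN+. Of these sums Tek made up 16.3 to 21.5 CPM and 23.4 to 30.04 CPM, and the defining marker Cldn5 was at 0.0486 CPM at most in both groups. In WT, 1 of the 5 endothelial markers was called higher in NeuN+ and 3 were called lower, so their sum does not measure endothelial cells alone. The 5 interneuron markers summed to 97.0 to 132 CPM in Mutyh-/- NeuN+ and to 145 to 154 CPM in WT NeuN+. All 5 were lower at an unadjusted edgeR p under 0.05 (median log2 fold change -0.37), beside 18.7% of all genes, and 0 were called. The part of endothelial cells or interneurons in the value of Plxnd1 was not tested.

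Plxnb3 in NeuN- was at 242, 224 and 202 CPM in Mutyh-/- against 173, 151 and 168 CPM in WT, a log2 fold change of 0.44 with an interval from 0.24 to 0.63 (edgeR adjusted p = 0.0887). All Mutyh-/- libraries were above all WT libraries. Without Mutyh-/- NeuN- replicate 3 the value was 0.50 (adjusted p = 0.0227). Plxnb3 was at 179.7, 168 and 150.3 CPM in Ogg1-/- and at 151, 184 and 172 CPM in DKO, which overlapped WT. The 6 oligodendrocyte markers summed in replicates 1 to 3 to 7051, 6905 and 5733 CPM in Mutyh-/- NeuN-. In WT NeuN- they summed to 7023, 6262 and 6514 CPM. Against WT, 1 of 6 was lower and 0 were higher at an unadjusted p under 0.05. The part of oligodendrocytes in the value of Plxnb3 was not tested.

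Plxna4 and its ligand Sema6b had lower values in NeuN- of the knockouts. Plxna4 was at 194, 195 and 199 CPM in Mutyh-/- NeuN- and at 195, 202 and 196 CPM in DKO NeuN-, all below the 3 WT libraries, with log2 fold changes of -0.17 and -0.16 (edgeR adjusted p = 0.144 and 0.183). Sema6b was at 9.47, 9.23 and 10.3 CPM in Mutyh-/- NeuN-, at 10.9, 9.76 and 10.6 CPM in Ogg1-/- NeuN- and at 10.5, 8.96 and 9.78 CPM in DKO NeuN-, against 12.3, 11.8 and 11.7 CPM in WT NeuN-. The log2 fold changes of Sema6b were -0.31, -0.20 and -0.30 (edgeR adjusted p = 0.122, 0.290 and 0.154). Both genes were higher in NeuN+ than in NeuN-. Other members called higher in NeuN+ in every genotype had these mean levels in WT and DKO NeuN-. They were 55.7 and 58.4 CPM for Nrp1, 76.7 and 84.5 for Plxna2, 38.9 and 39.6 for Plxna1, and 29.7 and 30.9 for Plxnc1. Sema3e was at 23.8 and 24.2, Sema4f at 5.82 and 5.81, Sema5a at 116 and 113, and Nrp2 at 55.6 and 55.4 CPM. The 5 neuronal markers, of which none passed the adjusted test, summed in NeuN- to 319 to 388 CPM in WT, 304 to 355 CPM in Mutyh-/-, 265 to 330.3 CPM in Ogg1-/- and 260.2 to 323 CPM in DKO. At an unadjusted p under 0.05, 2 of 5 were lower for Mutyh-/-, 4 for Ogg1-/- and 5 for DKO, with medians of -0.17, -0.31 and -0.43 on the log2 scale. The part of neuronal RNA in the values of Plxna4 and Sema6b was not tested.

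Sema4a in NeuN- was at 35.6, 36.2 and 34.8 CPM in Ogg1-/- against 29.2, 26.0 and 31.7 CPM in WT, a log2 fold change of 0.29 with an interval from 0.13 to 0.44 (edgeR adjusted p = 0.141). The 3 Ogg1-/- libraries lay above those of WT. The 6 astrocyte markers summed to 3247 to 4112 CPM in these Ogg1-/- libraries and to 2789 to 3314 CPM in WT, with 4 of 6 higher at an unadjusted p under 0.05 and 1 called. The 6 oligodendrocyte markers summed to 5295 to 5934 CPM in these libraries, wholly below the 6262 to 7023 CPM of WT, with 3 of 6 lower at an unadjusted p under 0.05. The part of either cell type in the value of Sema4a was not tested. Sema3e in NeuN+ was at 122, 136 and 115 CPM in Mutyh-/- against 115, 92.2 and 106 CPM in WT, a log2 fold change of 0.26 (edgeR adjusted p = 0.115) with groups that overlapped.

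**Figure D4:**
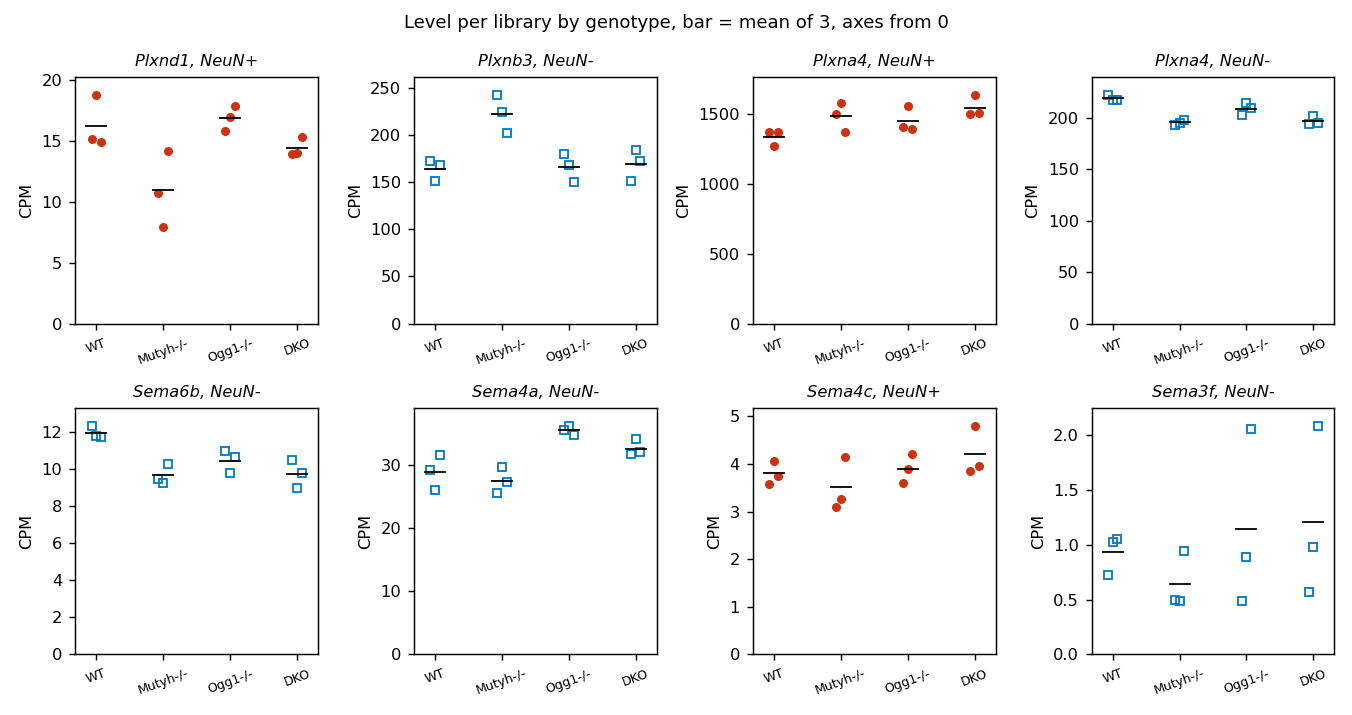
Level in CPM (axes from 0) per library by genotype for members with the smallest p-values, Sema4c and Sema3f; bars are means of 3. Plxnd1 in Mutyh-/- NeuN+ (7.92 to 14.2 CPM) lies below WT, Plxnb3 in Mutyh-/- NeuN- (202 to 242 CPM) lies above WT, and Sema4c overlaps between genotypes.

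Of the 30 members tested in NeuN+, 5 for Mutyh-/-, 5 for Ogg1-/- and 3 for DKO had knockout libraries that did not overlap WT, beside 21.6%, 20.1% and 17.5% of all genes. Of the 31 members in NeuN- the numbers were 8, 11 and 4, beside 19.2%, 19.4% and 16.8%. DKO was also compared with each single knockout, to see whether loss of both glycosylases differed from loss of one. In these 4 comparisons 0 members were called by edgeR and 0 by DESeq2. Without the fold limit DESeq2 passed 1 (Plxnb3 against Mutyh-/- in NeuN-), beside 0.945% of the genes fitted there. Of all genes, edgeR called 0.139% against Mutyh-/- and 0.216% against Ogg1-/- in NeuN+, and 0.122% and 0.132% in NeuN-. At an unadjusted p under 0.05, 4 members were counted against Mutyh-/- and 2 against Ogg1-/- in NeuN+ (6.86% and 4.26% of all genes), and 3 and 0 in NeuN- (11% and 4.34%). Plxnb3 in NeuN- was lower in DKO than in Mutyh-/- by a log2 value of -0.39 (edgeR adjusted p = 0.162).

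The difference between the cell types in the effect of a knockout was tested as an interaction. No member passed in Mutyh-/-, Ogg1-/- or DKO by edgeR, where 0.0209%, 0.0537% and 0.0567% of all genes did. At an unadjusted p under 0.05, 4, 6 and 5 members were counted, beside 8.58%, 7.09% and 9.4% of all genes. The smallest p-values belonged to Plxna4 in DKO, with an effect 0.36 ± 0.08 (SE) larger in NeuN+ than in NeuN- on the log2 scale (edgeR adjusted p = 0.108), and to Sema6b in DKO, with 0.38 ± 0.09 (edgeR adjusted p = 0.152). DESeq2 called both, at 0.38 (adjusted p = 0.00133) and 0.40 (0.00744). It also called Plxna4 in Mutyh-/- at 0.33 (adjusted p = 0.0128), and 0 members in Ogg1-/-. Of the genes fitted, DESeq2 called 0.242% for Mutyh-/-, 0.194% for Ogg1-/- and 0.665% for DKO. The 5 neuronal markers moved the same way in these tests, with median interaction values of 0.33, 0.35 and 0.40 for Mutyh-/-, Ogg1-/- and DKO. Of the 5, 3, 3 and 4 were higher at an unadjusted p under 0.05 and 0 passed the adjusted test. Rbfox3 itself had means of 1459 CPM in WT and 1701 CPM in DKO of NeuN+, and of 89.98 CPM and 67.2 CPM in NeuN-. The part of neuronal RNA in the interaction values of Plxna4 and Sema6b was not tested.

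The list of 50 signalling partners holds 13 co-receptors and other receptors, 4 other neuropilin ligands and 33 cytoplasmic partners. Between the cell types in WT, 10 partners were called higher in NeuN+ and 14 higher in NeuN-, beside 21.3% and 21.6% of all genes, so the share of partners called was near that of all genes. The partner with the smallest p was Crmp1, a cytoplasmic mediator of Sema3a signals, with a log2 difference of 2.59 in WT. In the knockouts, 1 of 48 partners tested in NeuN+ was called, Cfl1, which encodes the actin-severing protein cofilin. The calls fell in Ogg1-/- and DKO, where 0.574% and 0.302% of all genes were called. Cfl1 was at 43.3, 44.8 and 49.4 CPM in WT NeuN+ in rising order, at 27.6, 31.4 and 32.2 CPM in Ogg1-/- and at 25.5, 31.9 and 33.5 CPM in DKO. It fell by 0.61 on the log2 scale in both (edgeR adjusted p = 0.0234 in Ogg1-/- and 0.0362 in DKO), and these comparisons share the WT libraries. Cdk5r1, an activator of the kinase Cdk5, and Rac1, a GTPase to which plexins bind, also had an adjusted p under 0.05 in Ogg1-/- NeuN+ with log2 fold changes of -0.45 and -0.24 (edgeR adjusted p = 0.0229 and 0.0401), under the fold limit for a call. Of all genes, 1.1% had an adjusted p under 0.05 in that comparison. In Mutyh-/- NeuN+ and in NeuN- of all 3 knockouts, 0 partners were called by edgeR, with 13, 8, 12 and 10 at an unadjusted p under 0.05, beside 18.7%, 13.7%, 11.8% and 12.4% of all genes. The partners with the smallest p there were Ptk2 in Mutyh-/- NeuN+ (log2 fold change 0.23, edgeR adjusted p = 0.0772) and Crmp1 in NeuN- of Mutyh-/-, Ogg1-/- and DKO (-0.20, -0.29 and -0.29, edgeR adjusted p = 0.216, 0.0991 and 0.112).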

How the data were processed

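RNA of hippocampal nuclei was measured in 24 libraries. Read pairs were aligned by the authors to GRCm38 with HISAT2 2.1.0 and counted per gene of Ensembl release 102 with featureCounts. The values they deposited are raw counts, without normalization, and groups were taken from the labels. Counts were fitted with edgeR 4.0.16 in R 4.3.3 (TMM factors, filterByExpr, quasi-likelihood test, Benjamini-Hochberg adjustment over all genes tested). Cell types and interactions were tested in a fit of all 24 libraries (33523 genes), and genotypes in fits of 12 libraries (30132 genes in NeuN+ and 31863 in NeuN-). Replicates of NeuN+ varied with a biological coefficient of 0.0823 and those of NeuN- with 0.124, and the depth of a gene is its count. Members and lists were chosen with earlier results of these data known. Values per library are given for members that passed in a knockout comparison, Sema4c, the 3 largest cell-type differences in each direction called in all genotypes, and members called in none; others were chosen after their values were seen. Alternatives were DESeq2 1.42.0, other size factors, filters, limits and samples. Scripts were tested on simulated data. Deviations of NeuN+ and NeuN- libraries with the same replicate number correlated in all 12 pairs (0.01 to 0.29). For replicates 1 to 3 they were 0.011, 0.043 and 0.057 in WT and 0.045, 0.0995 and 0.181 in Mutyh-/-. In Ogg1-/- they were 0.149, 0.023 and 0.292, and in DKO 0.128, 0.113 and 0.197. The labels do not state whether the numbers pair libraries, and these values do not settle it. The reported fits held no term for pairing in any genotype. A replicate block was fitted only as an alternative. It was genotype and number for cell types and interactions, and the number alone for genotypes. Gene positions came from GENCODE vM21, and promoter windows from RefSeq.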

Additional observations from a re-analysis of the deposited data

Results flagged for a closer look

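Plxna4 was flagged because every knockout library lay above every WT library in NeuN+ and below every WT library in NeuN-, in Ogg1-/- and in DKO. Against WT, Ogg1-/- gave a log2 value of 0.10 for NeuN+ nuclei and -0.08 for NeuN- nuclei, and DKO gave 0.19 and -0.16. The difference between the cell types was 0.19 ± 0.08 (SE) in Ogg1-/- (edgeR adjusted p = 0.633) and 0.36 ± 0.08 in DKO (edgeR adjusted p = 0.108), so the test of the difference itself did not pass. The 5 neuronal markers had median interaction values of 0.35 in Ogg1-/- and 0.40 in DKO, with 3 and 4 of 5 higher at an unadjusted p under 0.05, and their part in the value of Plxna4 was not tested. Both comparisons share the WT libraries. Groups of 3 libraries were not searched for a single library that stands far from the others.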

How the results depend on the processing

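With the limit of the cell-type difference raised to an absolute log2 value of 2, 7 members were called in WT, 8 in Mutyh-/-, 9 in Ogg1-/- and 11 in DKO. The other alternatives gave numbers of called members within 1.5 times those reported between the cell types. In Mutyh-/- against WT in NeuN+, 1 member (Plxnd1) was called by DESeq2 and 1 without a filter on low counts, in place of 0. The cause of this was not tested. For interactions DESeq2 called 1 member in Mutyh-/- and 2 in DKO in place of 0, beside 0.242% and 0.665% of the genes fitted. Without 1 replicate, between 0 and 1 members were called in Mutyh-/- against WT in NeuN+ and in NeuN- and in DKO against Mutyh-/- in NeuN+, where the call of Plxnd1 (0.60, edgeR adjusted p = 0.0490) appeared without Mutyh-/- NeuN+ replicate 3. Between the cell types the numbers without 1 replicate were 20 to 21 (WT), 20 to 22 (Mutyh-/-), 19 to 20 (Ogg1-/-) and 19 to 21 (DKO).

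Deviations of NeuN+ and NeuN- libraries with the same replicate number had a mean correlation of 0.11. Different numbers gave a mean of -0.06 (-0.26 to 0.14). Deviations from the mean of 3 libraries sum to 0, so the second mean follows from the first and adds no evidence of pairing. Correlations between genotypes within a cell type were -0.22 to 0.27 for the same number. With a block of genotype and replicate number, 21 members were called between the cell types for WT, 21 for Mutyh-/-, 20 for Ogg1-/- and 19 for DKO. This block added Sema5b in Mutyh-/- and changed no other call between the cell types. Comparisons of genotypes used a block of the replicate number alone, and 0 members were called in each. Genotypes come from different mice, so the number need not join their libraries. Followed under the alternatives were 54 results of single members (each member between the cell types in WT, Sema4c against WT, and those with an unadjusted p under 0.01 or a call under an alternative), with 672 values. No called value reversed, 8 values were newly called and 1 (Sema5b in WT without WT NeuN+ replicate 2) fell under the fold limit. Signs changed in 4 values of 2 results that were not called, Plxnd1 between the cell types in WT and Sema4c in Ogg1-/- NeuN+, to values of at most 0.04 in size. Low counts limit Sema3g, Sema3b and Sema3f most.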
